A study of Mus musculus with 6 samples.

Results

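The genes described here are 61 protein-coding genes that were lower in microglia of Piezo1 knockout 5×FAD mice than in their controls and whose levels were even among the control samples. They were chosen from the 466 genes of the authors' deposited table by 4 limits: a control mean of at least 8 normalised reads, a control minimum above 0, a control highest-to-lowest ratio of at most 3, and a knockout mean under the control mean. Of 396 lower protein-coding genes, 304 met the first 2 limits and 69 of these were also even. A total of 8 of the 69 were set aside by name (Rps27rt, Cx3cr1, Dusp18, Fosb, Ccl22, Tyro3, Ryr2 and Cd209a). The choice used the values of both groups, so levels and differences of the 61 genes are given as a description, and neither their direction nor their evenness in controls is a finding.

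Poly(A) RNA of microglia from adult brain was sequenced from 3 samples per group. The knockout mice carried 5×FAD, floxed Piezo1 on both alleles (Piezo1fl/fl) and Cx3cr1CreER-EYFP, and the controls were littermates that carried 5×FAD and Piezo1fl/fl; all were male. All mice received tamoxifen into the peritoneum, at 20 mg/kg once a day for 4 days from 4.5 weeks of age, and the strain label is C57BL/6N. 5×FAD is a transgenic line with amyloid pathology, and Piezo1 encodes a mechanically gated cation channel. The Cre recombinase is driven from the Cx3cr1 locus, which is active in microglia and also in other macrophages. The Cre allele is named for the knockout group alone, so loss of Piezo1 and presence of that allele cannot be told apart. No source used here gives the number of mice per sample, and p-values or SDs measure the spread between these samples. Piezo1 itself was not analysed here.

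A normalised read is a read count divided by the size factor of its sample. All values were whole multiples of the value of 1 read, and size factors ranged from 0.979 to 1.03, so 1 normalised read is close to 1 read. Total library depths are unknown. The libraries differed in genes of other brain cells. Markers of neurons outside the 61 genes (11 of a list of 38 were in the table) summed to 111, 231 and 890.4 normalised reads in control samples 1 to 3 and to 34.4, 92.9 and 11.1 in knockout samples 1 to 3. Markers of choroid plexus and ependyma (9 of 19) summed to 3513, 19312 and 365 in the controls and 2049, 890.4 and 594 in the knockouts. Markers of astrocytes (3 of 19) summed to 10.8, 68.9 and 143 in the controls against 10.8, 22.5 and 3.04 in the knockouts. Markers of mural cells and fibroblasts (5 of 21) summed to 142, 569 and 346 against 92.4, 65.4 and 46.5. Markers of oligodendrocytes (2 of 17) summed to 261, 533 and 956 in the controls against 262, 181 and 326 in the knockouts. None of these markers was at 0 in all 3 knockout samples. Of 21 homeostatic microglia genes, Cx3cr1 was the one in the table, so the labelled cell type could not be checked against the others. The neuron markers were lowest in control 1 among controls and highest in knockout 2 among knockouts, and the part of such RNA in the results below was not tested. In bulk samples, fewer cells of a type and less RNA per cell cannot be told apart.

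Many of the 61 genes are best known from neurons. Transmitter is released when synaptic vesicles, held near the membrane by synapsins, fuse with the membrane and are then recovered by dynamin. Sodium channels carry the action potential along the axon, whose microtubules are bound by tau and by kinesin motors. Other members act in processes known in many cells: actin and myosin contraction, desaturation of fatty acids, and natriuretic peptide signalling. By these roles, 28 genes were placed in 4 neuronal groups (presynaptic vesicle cycle, synaptic scaffold and surface adhesion, ion channels and transmitter receptors, microtubules and axon) and 33 in 8 other groups. The grouping rests on textbook function and was made with the values known. It does not say which cells the RNA came from.

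The 61 genes were of low abundance. Their control means ranged from 8.45 to 141 normalised reads with a median of 17.2, and their knockout means from 0 to 55.2 with a median of 3.35. A control mean of at least 30 was reached by 17 genes, and 30 genes had under 10 reads over all 3 knockout samples together. The highest knockout value was under the lowest control value for 57 of the 61 genes (93.4%), as for 45.3% of all 466 listed genes. Nothing is read from that share, since the rule limited the controls and both group means. The 4 genes whose groups overlapped, named after their values were seen, were Nxn, Syn1, Dlgap1 and Scn8a. Samples were also rescaled to an equal median ratio over the listed genes with reads in every sample. This scaling moved the median difference of all listed genes by 1.03 on the log2 scale, and that of the 61 genes from -2.07 to -0.80. Under it 11 of the 61 genes turned to a positive difference, among them Aplp1, Tspoap1, Crip2, Pfn2, Nxn, Fads2, Ppp4r4, Spock2 and Klf15, and 17 (27.9%) had groups without overlap, as did 20.0% of all 466 listed genes. For those 11 genes the direction therefore depends on the scaling. Since 410 of the 466 listed genes are lower, rescaling on listed genes shifts their differences upward by construction. Which scaling holds was not tested.

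**Figure D1:**
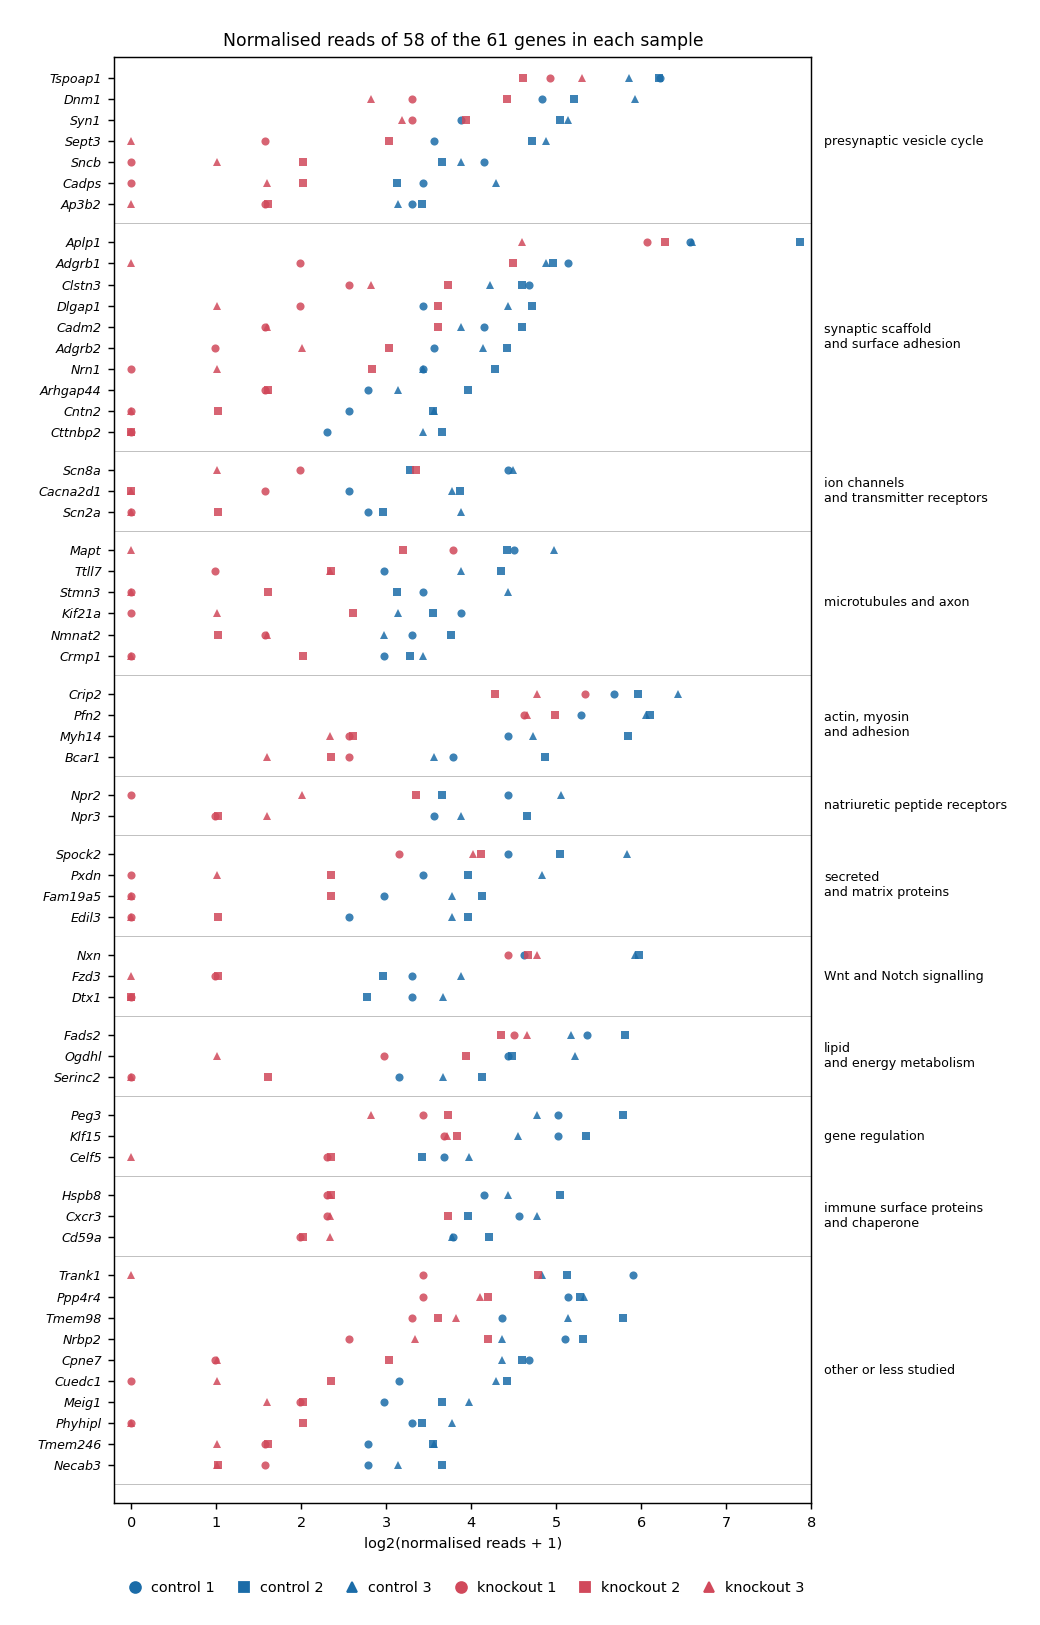
Normalised reads of 58 of the 61 genes in each of the 6 samples, as log2(normalised reads + 1) on the horizontal axis, with one gene per line and genes grouped by role. Blue marks are controls and red marks are knockouts. For 54 of these 58 genes all red marks lie left of all blue marks on the authors' scale. Over all 61 genes the groups did not overlap for 57 (93.4%), as for 45.3% of the 466 listed genes. After rescaling to the median ratio of listed genes these were 17 genes (27.9%), against 20.0% of all listed genes.

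Per gene, the size of the difference is given as control over knockout, from the reads of the 3 samples of a group summed and divided by their summed size factors. Its 95% interval is exact and covers counting error only and leaves out the spread between samples. A limma estimate on log2(normalised reads + 1), with its standard error from the spread between samples, is added where the values of all 6 samples are given and a gene had more than 3 knockout reads. Levels of different genes are compared per kb of gene length.

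Genes of the presynaptic vesicle cycle numbered 8. Tspoap1, which encodes a protein of the presynaptic active zone that binds calcium channels, had 73.6, 72.7 and 56.8 normalised reads in the 3 control samples, in the order of their numbers, and 29.5, 23.5 and 38.4 in the 3 knockout samples. Its controls were close together and all above the knockouts, with knockout 3 highest of the latter. The control over knockout ratio was 2.22 (counting interval 1.73 to 2.87), and the limma estimate was -1.14 (SE 0.60). Dnm1, the dynamin that pinches vesicles off the membrane, had 27.5, 35.9 and 59.7 in the controls and 8.85, 20.4 and 6.07 in the knockouts. Control 3 was highest and knockout 2 stood nearest the controls, with a ratio of 3.50 (2.39 to 5.24) and a limma estimate of -1.81 (SE 0.73). Sncb, the gene of beta-synuclein, had 16.7, 11.6 and 13.7 in the controls against 0, 3.06 and 1.01 in the knockouts, a ratio of 10.4 (3.80 to 40.1) that rests on 4 knockout reads. Its limma estimate was -2.88 (SE 0.79).

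Syn1 encodes synapsin, which tethers vesicles to the cytoskeleton. It had 13.7, 32.01 and 34.2 normalised reads in the controls and 8.85, 14.3 and 8.09 in the knockouts, so knockout 2 was above control 1 and the groups overlapped. Its ratio was 2.57 (1.68 to 4.02), with a limma estimate of -1.22 (SE 0.71). Other genes of this group were Cadps (a priming factor of dense-core vesicles), Ap3b2 (a subunit of the neuronal AP-3 coat) and Sept3 (a septin GTPase). Ratios within the group ran from 2.22 for Tspoap1 to 10.4 for Sncb. Knockout 2 had the highest knockout value for 6 of the 8 genes. Of the 38 neuron markers, 14 were in the table, all lower, and Dnm1, Syn1 and Scn2a met the rule. Since 410 of all 466 listed genes are lower, nothing is read from that direction here or for the lists below.

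Genes of synaptic scaffolds and surface adhesion numbered 10. Aplp1, a member of the amyloid precursor protein family, was the most abundant of the 61 genes, also per length, at 46.6 normalised reads per kb in controls and 18.3 in the knockout. It had 94.2, 232 and 95.9 normalised reads in the controls and 65.9, 76.6 and 23.3 in the knockouts. Control 2 stood far above the other controls, which were close to each other, and knockout 3 was lowest. The ratio was 2.55 (2.13 to 3.07), and the limma estimate was -1.36 (SE 0.70).

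Adgrb1, singled out after its values were seen, encodes an adhesion receptor that acts at synapses and in the engulfment of dying cells. Its controls were even at 34.3, 30.1 and 28.4 normalised reads, while its knockouts differed widely at 2.95, 21.4 and 0. Knockout 2 came close to the controls and knockout 3 had no read. The variance over mean of its reads, which counting alone would bring to about 1, was 0.295 in controls and 16.1 in knockouts. Its ratio of 3.85 therefore averages knockout samples that did not resemble each other, and its limma estimate was -2.84 (SE 1.07).

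Cttnbp2, whose protein binds cortactin in dendritic spines, had 3.92, 11.6 and 9.78 normalised reads in controls and no read in any knockout sample. Against a floor of 3 reads in each knockout library it was at least 2.80-fold lower. The floor is stricter than the lower counting limit given for other genes, which was 6.37 for Cttnbp2. Cntn2, an axonal contactin, had 4.91, 10.7 and 10.8 in the controls and 0, 1.02 and 0 in the knockouts, that is 1 knockout read in all, a ratio of 26.2 (4.32 to 1074). These wide limits show how little the depth says about the size of the difference for such genes. The remaining genes were Dlgap1 (a scaffold of the postsynaptic density), Adgrb2, Clstn3 (a calsyntenin of the synaptic cleft), Cadm2, Nrn1 (neuritin) and Arhgap44 (a GTPase activator), with ratios from 2.83 for Clstn3 to 5.41 for Nrn1. Exons of Nrn1 overlap those of Fars2 on the opposite strand over 22.3% of their length, so its reads are uncertain. In this group knockout 2 was the highest knockout sample for 8 of the 10 genes.

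Genes of ion channels and transmitter receptors numbered 4, among them the sodium channel genes Scn2a and Scn8a and Cacna2d1 (an auxiliary calcium channel subunit). Scn8a had 20.6, 8.73 and 21.5 normalised reads in the controls and 2.95, 9.19 and 1.01 in the knockouts, and its groups overlapped because knockout 2 was above control 2. Its ratio was 3.89 (2.09 to 7.78), with a limma estimate of -1.96 (SE 0.85). Scn2a had 5.89, 6.79 and 13.7 in the controls and 0, 1.02 and 0 in the knockouts, a ratio of 26.2 (4.32 to 1074) on 1 knockout read. The groups did not overlap, and Scn2a had the lowest control level of the 61 genes per length, at 0.691 normalised reads per kb. Cacna2d1 had 4.91, 13.6 and 12.7 in the controls and 1.97, 0 and 0 in the knockouts, a ratio of 15.5 (3.97 to 134). Control 1 was its lowest control, and the ratio rests on 2 knockout reads. Of 72 genes in a list of channels and receptors, 12 were in the table, all lower, and 4 met the rule.

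Genes of microtubules and the axon numbered 6. Mapt, the gene of the microtubule-binding protein tau, had 21.6, 20.4 and 30.3 normalised reads in the controls and 12.8, 8.17 and 0 in the knockouts. Its highest knockout sample was knockout 1, and knockout 3 had no read. The ratio was 3.42 (2.09 to 5.85), and the limma estimate was -2.30 (SE 1.01). Stmn3, a stathmin family gene, had 9.81, 7.76 and 20.5 in the controls and 0, 2.04 and 0 in the knockouts, a ratio of 18.9 (4.90 to 162) on 2 knockout reads. The others were Kif21a (a kinesin), Crmp1 (a mediator of semaphorin signals), Ttll7 (a tubulin polyglutamylase) and Nmnat2 (an NAD-synthesising enzyme that maintains axons), with ratios from 4.43 for Ttll7 to 8.42 for Crmp1 (interval 2.58 to 43.5 on 3 knockout reads). The groups did not overlap for any of the 6 genes, as for 93.4% of the 61 genes and 45.3% of all 466 listed genes. Of 59 genes in a cilium and microtubule list, 8 were in the table, all lower, and Kif21a and Mapt met the rule.

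Genes of actin, myosin and adhesion numbered 4. Myh14, a nonmuscle myosin heavy chain, had 20.6, 56.3 and 25.4 normalised reads in the controls and 4.92, 5.11 and 4.05 in the knockouts. Control 2 was highest among controls, whereas the knockouts were nearly equal. Its ratio of 7.29 (4.16 to 13.8) was the largest among the 17 genes with a control mean of at least 30, and the limma estimate was -2.50 (SE 0.71). The authors' deposited table gives Myh14 the smallest adjusted p of the 61 genes, 0.0719, and a log2 fold change of -2.86. Crip2, which encodes a LIM domain protein, had 50.04, 61.1 and 85.1 in the controls and 39.3, 18.4 and 26.3 in the knockouts, a ratio of 2.32 (1.79 to 3.04). Pfn2, an actin-binding profilin, had 38.3, 67.9 and 65.6 in the controls and 23.6, 30.6 and 24.3 in the knockouts, a ratio of 2.19 (1.67 to 2.90). The limma estimates were -1.23 (SE 0.63) for Crip2 and -1.06 (SE 0.62) for Pfn2. In this group the sample order differed: knockout 1 was the highest knockout for Crip2 and Bcar1 (a focal adhesion scaffold), knockout 2 for Pfn2, and no sample for Myh14. Of 55 genes in a list for the actin cytoskeleton and focal adhesion, 6 were in the table, all lower, and Myh14 was the one that met the rule.

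Both members of a further group, Npr2 and Npr3, encode natriuretic peptide receptors. Npr2 is the guanylyl cyclase receptor of C-type natriuretic peptide, and Npr3 clears these peptides from the cell surface. Npr2 had 20.6, 11.6 and 32.3 normalised reads in the controls and 0, 9.19 and 3.04 in the knockouts, with control 3 highest and no read in knockout 1. Npr3 had 10.8, 24.2 and 13.7 in the controls and 0.983, 1.02 and 2.02 in the knockouts, so all 3 knockouts held 1 or 2 reads. The ratios were 5.34 (2.86 to 10.9) for Npr2 and 12.1 (4.46 to 46.3) for Npr3, with limma estimates of -2.60 (SE 0.96) and -2.83 (SE 0.73).

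Secreted and matrix proteins were encoded by 4 genes. Spock2, a proteoglycan gene that stands in the lists of endothelial and matrix genes, had 20.6, 32.01 and 55.8 normalised reads in the controls and 7.86, 16.3 and 15.2 in the knockouts. Control 3 was highest and knockout 1 lowest, with a ratio of 2.77 (1.90 to 4.09) and a limma estimate of -1.34 (SE 0.71). Pxdn, the peroxidasin that cross-links collagen IV, had 9.81, 14.5 and 27.4 in the controls and 0, 4.08 and 1.01 in the knockouts, a ratio of 10.3 (4.15 to 33.02) and a limma estimate of -2.96 (SE 0.86). Edil3, an integrin ligand, had 4.91, 14.5 and 12.7 in the controls and 0, 1.02 and 0 in the knockouts, a ratio of 32.1 (5.37 to 1304) on 1 knockout read. Fam19a5, which encodes a small secreted protein, had a ratio of 8.99. Knockout 2 was the highest knockout for all 4 genes. Of 107 genes in the matrix list, 28 were in the table, and 27 of these did not meet the rule. All 28 were lower, as were 410 of the 466 listed genes.

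Among genes of Wnt and Notch signalling, Nxn (nucleoredoxin, which binds the Wnt relay protein Dishevelled) had 23.5, 62.1 and 59.7 normalised reads in the controls and 20.6, 24.5 and 26.3 in the knockouts. Control 1 lay inside the knockout range, and controls 2 and 3 stood well above it. The ratio was 2.04 (1.53 to 2.74), and the limma estimate was -0.88 (SE 0.67). Fzd3, a Wnt receptor gene, had 8.83, 6.79 and 13.7 in the controls and 0.983, 1.02 and 0 in the knockouts, a ratio of 14.6 (3.70 to 126). Dtx1, a ubiquitin ligase gene of the Notch pathway, had 8.83, 5.82 and 11.7 in controls and no read in any knockout sample. It was at least 2.92-fold lower against the floor of 3 reads in each knockout library, and its lower counting limit was 6.64. Together with Cttnbp2, Dtx1 was 1 of 2 members without knockout reads. Of 74 genes in a Wnt, Hippo, Notch and hedgehog list, 6 were in the table, all lower, and Fzd3 was the one that met the rule.

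Genes of lipid and energy metabolism numbered 4. Fads2, the gene of a desaturase that starts the synthesis of long polyunsaturated fatty acids, had 40.2, 55.3 and 35.2 normalised reads in the controls and 21.6, 19.4 and 24.3 in the knockouts. Its knockouts were close together, and the ratio was 2.00 (1.48 to 2.74), the smallest of the 61 genes, with a limma estimate of -0.95 (SE 0.62). Serinc2, a serine incorporator family gene, had 7.85, 16.5 and 11.7 in the controls and 0, 2.04 and 0 in the knockouts, a ratio of 17.97 (4.64 to 154) on 2 knockout reads. Ogdhl, which encodes a relative of a citric acid cycle enzyme, had a ratio of 3.53 and knockout values of 6.88, 14.3 and 1.01. Per length, the control level of Fads2, 28.9 normalised reads per kb, was below those of Aplp1 and Crip2 (31.2 per kb) alone. Of 57 genes in a lipid metabolism list, 7 were in the table, all lower, and Fads2 was the one that met the rule.

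Gene regulators were Peg3, Klf15 and Celf5. Peg3, an imprinted zinc finger gene expressed from the paternal allele, had 31.4, 54.3 and 26.4 normalised reads in the controls and 9.83, 12.3 and 6.07 in the knockouts, a ratio of 3.99 (2.62 to 6.27). Control 2 was highest, and the groups did not overlap. Klf15, a Krüppel-like transcription factor gene, had 31.4, 39.8 and 22.5 in the controls and 11.8, 13.3 and 12.1 in the knockouts, a ratio of 2.52 (1.71 to 3.79). Its knockouts were nearly equal, with a variance over mean of 0.0270. The limma estimates were -1.87 (SE 0.69) for Peg3 and -1.23 (SE 0.65) for Klf15. Celf5, an RNA-binding protein gene, had a ratio of 4.49. Of 89 developmental transcription factors in a list, 9 were in the table, all lower, and Klf15 was the one that met the rule.

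A small group held immune surface proteins and a chaperone. Hspb8, a small heat shock protein gene, had 16.7, 32.01 and 20.5 normalised reads in the controls and 3.93, 4.08 and 4.05 in the knockouts. Every knockout sample held 4 reads, and control 2 was highest among controls. The ratio was 5.75 (3.09 to 11.6), and the limma estimate was -2.21 (SE 0.69). Cxcr3, a chemokine receptor gene of T cells and some myeloid cells, had 22.6, 14.5 and 26.4 in the controls and 3.93, 12.3 and 4.05 in the knockouts, a ratio of 3.16 (1.89 to 5.50). Cd59a, an inhibitor of the complement membrane attack complex, had 12.8, 17.5 and 12.7 in the controls and 2.95, 3.06 and 4.05 in the knockouts, a ratio of 4.27 (2.12 to 9.53). For these 3 genes the groups did not overlap, as for 93.4% of the 61 genes and 45.3% of all 466 listed genes. The limma estimates were -1.64 (SE 0.74) for Cxcr3 and -1.81 (SE 0.69) for Cd59a. No gene of a list of 20 disease-associated microglia genes was in the table.

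The last 10 genes have other or less studied roles. Trank1 had 58.9, 33.9 and 27.4 normalised reads in the controls and 9.83, 26.6 and 0 in the knockouts. Its knockouts spanned the range from no read to just under the lowest control, and the ratio was 3.32 (2.27 to 4.96). Trank1 lies on chromosome 9, where its start is 8.59 Mb before that of Cx3cr1, the locus of the Cre cassette. It was the one member among the 32 genes of the table on that chromosome, after Cx3cr1 was set aside by name. Ppp4r4, a regulatory subunit gene of protein phosphatase PP4, had 34.3, 37.8 and 39.1 in the controls and 9.83, 17.4 and 16.2 in the knockouts. Its controls were the most even of the abundant members, with a variance over mean of 0.184, and the ratio was 2.58 (1.80 to 3.75). The limma estimates were -2.55 (SE 1.14) for Trank1 and -1.34 (SE 0.64) for Ppp4r4.

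Tmem98, a membrane protein gene, had 19.6, 54.3 and 34.2 in the controls and 8.85, 11.2 and 13.2 in the knockouts, a ratio of 3.27 (2.20 to 4.98). Cuedc1 had 7.85, 20.4 and 18.6 in the controls and 0, 4.08 and 1.01 in the knockouts, a ratio of 9.33 (3.73 to 30.02). Phyhipl had 8.83, 9.70 and 12.7 in the controls and 0, 3.06 and 0 in the knockouts, a ratio of 10.4 (3.24 to 52.9). Control 2 was highest for Tmem98 and Cuedc1 and control 3 for Phyhipl. The groups did not overlap for any of the 3, as for 93.4% of the 61 genes and 45.3% of all 466 listed genes. The limma estimates were -1.52 (SE 0.69) for Tmem98 and -2.83 (SE 0.86) for Cuedc1. Cpne7 (a copine, a calcium-dependent membrane-binding protein) had a ratio of 7.45, Nrbp2 (a pseudokinase) of 2.95, and Meig1, Tmem246 and Necab3 had ratios between 4.13 and 6.32.

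**Figure D2:**
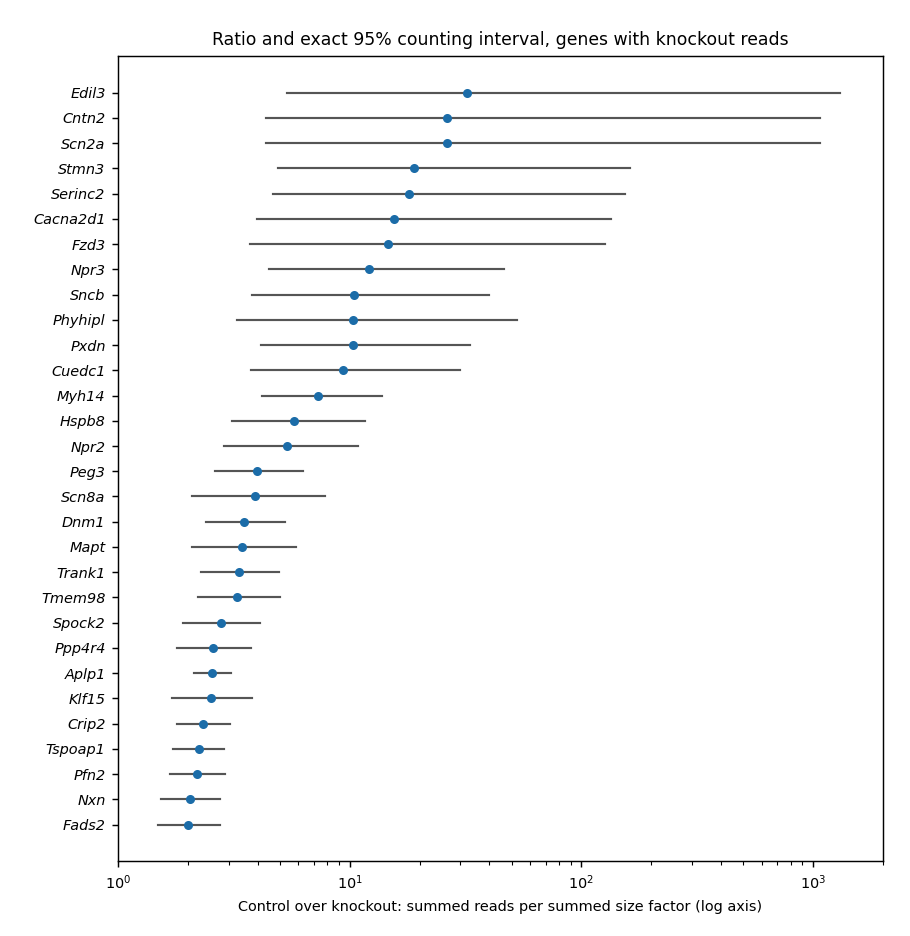
Control over knockout for 30 genes named by the rule with at least 1 knockout read, as summed reads per summed size factor on a log axis. Points are the ratios and lines the exact 95% intervals for counting error; they widen from 2.13 to 3.07 for Aplp1 to 5.37 to 1304 for Edil3.

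The rule limited the spread of the controls and left that of the knockouts free. Among the knockouts, knockout 2 held the highest value, by reads as well as by normalised reads, for 36 of the 61 genes (59.0%), knockout 1 for 6 and knockout 3 for 7, and 12 had no single highest sample. Knockout 2 was highest for 38.5% of all lower listed genes (410), and for 43.0% of the 235 uneven lower coding genes, those above the control ratio of 3. The median value, as a percentage of each gene's control mean, was 17.04%, 31.8% and 11.8% in knockouts 1, 2 and 3. For the 28 genes of the neuronal groups these medians were 10.3%, 34.3% and 8.70%, and knockout 2 was highest for 19 genes. For the 33 other genes they were 21.6%, 29.9% and 12.46%, and knockout 2 was highest for 17. The neuron markers outside the 61 genes had the same order of knockout samples, at 34.4, 92.9 and 11.1 normalised reads in sum. Astrocyte markers had it too, at 10.8, 22.5 and 3.04. Those of choroid plexus and ependyma (2049, 890.4 and 594) and of mural cells and fibroblasts (92.4, 65.4 and 46.5) were highest in knockout 1. So was the endothelial marker Pltp, at 62.9, 42.9 and 33.4. Oligodendrocyte markers (Cryab and Gsn) were highest in knockout 3 and lowest in knockout 2, at 262, 181 and 326 in sum. Erythroid markers (Hba-a1 and Hbb-bs) were highest in knockout 2, at 0, 28.6 and 3.04. The part of such RNA in the order of the 61 genes was not tested. Restricted to the 28 members with a knockout mean of at least 4 normalised reads, a limit set after the data were examined, knockout 2 was highest for 19 (67.9%).

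**Figure D3:**
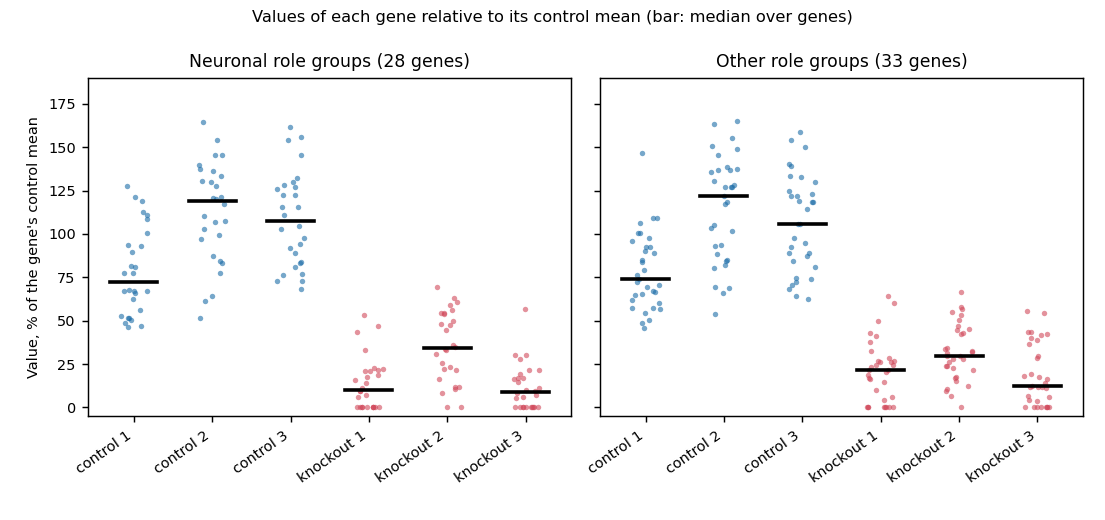
Value of each gene in each sample as a percentage of its control mean, for the 28 genes of the neuronal groups (left) and the 33 others (right). Points are genes and bars medians; in the left panel the knockout bars stand at 10.3%, 34.3% and 8.70%, so knockout 2 lies above knockouts 1 and 3.

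Among the controls, control 2 was highest for 30 genes, control 3 for 24 and control 1 for 7. The median percentage of the control mean was 74.1%, 120.0% and 105.8% in controls 1, 2 and 3. Control 1 was the lowest control for 35 genes. In the neuronal groups the medians were 72.5%, 118.8% and 107.7%, in the same order. The neuron markers outside the 61 genes had another order among controls, at 111, 231 and 890.4 normalised reads in sum: control 3 was far highest there, while control 2 was highest for these medians. The rule limited the control ratio of members to 3, and genes outside it could differ more, so the contrast is partly built in. Nothing is read from it, and it also sets a sum of reads against medians of percentages.

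The spread within groups of the members was set beside that of the 235 uneven lower coding genes, which met the limits on level and exceeded the ratio of 3 among controls. The variance over mean of reads within the knockout had a median of 1.87 for the 61 genes, 2 of which had no knockout reads and no value, and it exceeded 2 for 29 genes. For the uneven genes the knockout median was 2.15. Within controls, where the rule acts, the medians were 2.46 for the even and 24.5 for the uneven genes. Of the 61 genes, 36 exceeded 2 in controls. Hspb8 and Arhgap44 had equal reads above 0 in the 3 knockout samples, and Dtx1 and Cttnbp2 had none in any of them.

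**Figure D4:**
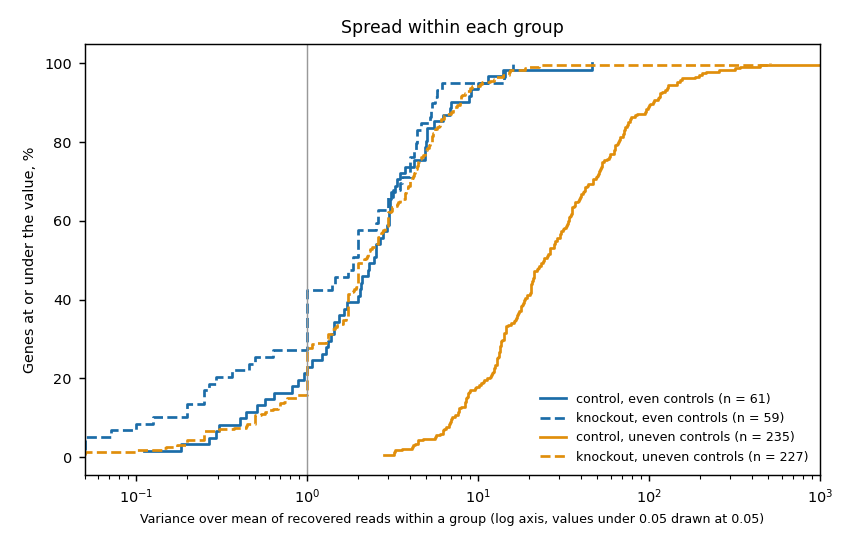
Variance over mean of reads within a group (log axis) against the percentage of genes at or under it, for the 61 genes with even controls and 235 lower coding genes with uneven controls. Solid lines are controls and dashed lines knockouts; the 2 dashed lines lie close together, with medians of 1.87 and 2.15, while the solid line of the uneven genes lies far to the right.

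Of the genes near the limits of the rule, just inside the ratio of 3 were Ttll7 at 2.82 and Edil3 and Cttnbp2 at 2.97. Just outside were Clip3 at 3.05, Cnn3 at 3.08 and Nefh at 3.10. The lowest control means inside the limit were those of Cttnbp2, Necab3 and Crmp1, at 8.45, 8.45 and 8.46 normalised reads, and the highest outside were those of Cnnm1 at 7.82, Nrxn3 at 7.80 and Ypel4 at 7.16.

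Lower genes at an adjusted p under 0.05 made up 3.00% of the list in the authors' deposited table, and 0 members were among them. In fits over all 466 genes, limma called 0 members and 0.00% of all listed genes at an adjusted p of 0.05. At an unadjusted limma p under 0.05, 46 members (75.4%) and 46.4% of the listed genes were lower. edgeR's quasi-likelihood test on the recovered reads also called 0 members and 0.00% of the listed genes. At its unadjusted p under 0.05, 20 members (32.8%) and 48.5% of the listed genes were lower. DESeq2 on the same reads called 4 members (6.56%), Myh14, Npr3, Dtx1 and Hspb8, and 10.3% of the listed genes. At its unadjusted p under 0.05, 29 members (47.5%) and 46.1% of the listed genes were lower. The share of members was thus above that of the list in limma, below it in edgeR and near it in DESeq2. The authors had selected every listed gene, and the rule every member, on the same contrast, so these counts do not test the 61 genes. Without control 1, limma called 196 listed genes at an adjusted p of 0.05, of which 184 were lower and 23 were members, and without control 3 it called 36, of which 3 were members. The median limma log2 difference was -2.07 over the 61 genes and -1.99 over all 466 genes. As a log2 ratio of group means, with the 2 genes without knockout reads set to their bounds, the median over the 61 genes was -2.13. Without knockout 2, the limma median over the 61 genes was -2.58. With the samples rescaled to the median ratio of listed genes, limma called 56, of which 10 were lower.

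The members lay on 19 of the chromosomes, most often chromosomes 11 and 15 with 7 genes each, where 36 and 23 genes of the table lie (GRCm38). A total of 3 pairs of neighbours lay within 2 Mb of each other: Tspoap1 and Cuedc1 on chromosome 11, 0.312 Mb apart, Adgrb2 and Serinc2 on chromosome 4, 0.231 Mb apart, and Adgrb1 and Nrbp2 on chromosome 15, 1.496 Mb apart. Aplp1 spans chromosome 7, 30434982 to 30445535, minus strand, Myh14 chromosome 7, 44605803 to 44670843, minus strand, and Adgrb1 chromosome 15, 74516195 to 74589465, plus strand. Exons of 18 members overlap those of another annotated gene, and no source used here says if reads were counted by strand. The overlap exceeded 20% of the exonic bases for Nrn1 alone.

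The promoters of the members were searched for letters in common. Of the 61 genes, 49 had 69 windows of 250 bases before a start site in the RefSeq table (GRCm38.p6). The windows of members held a median of 14 CpG dinucleotides against 6 over all 32851 windows of that length. Their median GC content was 63.6% against 52.4%, and the motif shares below are not adjusted for it. The GC box GGGGCGGGG, on either strand, was in 29.0% of member windows and 10.4% of all, and TATAAA, on either strand, in 4.35% and 12.4%. The RE1 element is the binding site of REST, a repressor of neuronal genes in other cells. Its left part TTCAGCACC, on either strand, was in 2.90% of member windows (2 of 69, Syn1 and Crip2) and 0.301% of all. Its right part GACAGCGCC, on either strand, was in 0% of member windows and 0.237% of all. CAGCACC and GGACAG joined by any 2 bases, which share letters with both parts, were found on either strand in 1.45% of member windows (1 of 69, Ogdhl) and 0.0335% of all. Shares that rest on so few windows do not allow a comparison. These motifs were chosen with the data known. A match says only that the letters are present.

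The 3 promoters with a match to a part of RE1 are printed because they belong to members with different orders among the knockouts: Syn1 and Ogdhl were highest in knockout 2, and Crip2 was highest in knockout 1. Each runs 5′ to 3′ on the strand of its gene, ends at the base before the start site, and carries the match in capitals. The windows are chrX:20920919-20921168 on the minus strand for Syn1, chr12:113139986-113140235 on the plus strand for Crip2 and chr14:32321769-32322018 on the plus strand for Ogdhl (GRCm38.p6).
Syn1: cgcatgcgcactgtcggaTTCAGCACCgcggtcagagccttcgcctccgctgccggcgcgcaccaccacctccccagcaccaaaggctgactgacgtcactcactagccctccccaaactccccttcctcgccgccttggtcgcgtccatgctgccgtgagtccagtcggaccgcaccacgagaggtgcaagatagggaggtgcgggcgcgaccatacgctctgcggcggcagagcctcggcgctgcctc
Crip2: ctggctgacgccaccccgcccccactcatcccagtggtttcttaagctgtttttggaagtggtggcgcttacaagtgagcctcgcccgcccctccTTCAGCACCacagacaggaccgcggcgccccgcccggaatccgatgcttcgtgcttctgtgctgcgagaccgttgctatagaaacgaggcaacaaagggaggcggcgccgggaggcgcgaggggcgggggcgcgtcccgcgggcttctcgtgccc
Ogdhl: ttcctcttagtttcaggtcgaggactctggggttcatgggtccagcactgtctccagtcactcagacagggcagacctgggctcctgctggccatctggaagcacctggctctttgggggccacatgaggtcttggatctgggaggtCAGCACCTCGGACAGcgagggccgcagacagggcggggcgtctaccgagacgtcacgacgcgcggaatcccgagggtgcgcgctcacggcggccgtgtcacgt
The match begins 232 bases before the start in Syn1, 155 in Crip2 and 103 in Ogdhl. Beside them, the knockout values of Syn1 were 8.85, 14.3 and 8.09, those of Ogdhl 6.88, 14.3 and 1.01 and those of Crip2 39.3, 18.4 and 26.3 normalised reads.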

How the data were processed

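Microglial RNA of 3 knockout and 3 control samples was sequenced as paired 150-base reads. The submitters' processing notes name cutadapt 1.11, HISAT2, RSEM 1.2.30, DESeq2, R 3.6.1 and the build GRCm38, with no role or order. The authors' deposited table lists 466 genes, whose deposited p-values are all under 0.05 before adjustment and whose deposited log2 fold changes all exceed 1 in size. Its expression values are a signal per gene, deposited as normalised read counts: each is a whole number of reads (all values, tolerance 1e-06) divided by a size factor. Gene lengths in bases, another deposited column, served for levels per kb. Library depth is unknown, since the table holds part of each library.

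The members and gene lists were chosen with earlier results of these data known. limma 3.58.1 (R 4.3.3) was fitted with trend to log2(value + 1) of all listed genes, with Benjamini-Hochberg adjustment. The recovered reads and size factors were also fitted with edgeR 4.0.16 (quasi-likelihood) and DESeq2 1.42.0, and all 3 were tested on simulated data. Ratios have exact 95% conditional intervals for counting error. Reads are not independent molecules, since no molecular identifiers are named. Values per sample are given for the 15 members with the highest control mean, the 15 with the lowest knockout over control ratio, and the most abundant member of each role group or list; 3 members are counted but not reported by name here. Coordinates are the deposited ones, and exon overlaps are from GENCODE vM21. The labels do not say that replicate numbers pair the samples, so the main fits used no pairing.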

Additional observations from a re-analysis of the deposited data

How the results depend on the processing

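The number of members depended on the limits: it was 27 with a control ratio of at most 2, 95 with at most 4 and 33 with a control mean of at least 16. Leaving out 1 sample in turn gave 61 to 158 members, with 158 without control 1, 103 without control 2 and 107 without control 3, of which 61, 56 and 55 were among the 61. The median log2 difference was -1.42 with a pseudocount of 4 and -0.80 after rescaling to the median ratio of listed genes, and -2.58 (without knockout 2) to -1.76 with 1 sample left out. The groups of 17 members did not overlap after rescaling (27.9%, against 20.0% of all listed genes), nor those of 32 members without the 28 of the neuronal groups (45.3% of all listed genes). With 1 sample left out these were 57 to 60 members (93.4% to 98.4%), against 48.5% to 68.2% of all listed genes. limma called 120 listed genes with a pseudocount of 0.5 (20 members), 56 after rescaling (2 members) and 0 to 196 with 1 sample left out. DESeq2 called 48. With the replicate number as a block limma called 4 genes, none of them members. Same-numbered samples had correlations of deviations of -0.04, -0.043 and 0.075, and differently numbered ones from -0.195 to 0.27. With so few samples, these values cannot decide if the numbers pair the samples. The block changed no call of a named member. After rescaling, log2 differences were 0.19 for Aplp1, 0.39 for Tspoap1, 0.31 for Crip2, 0.47 for Pfn2, 0.65 for Nxn, 0.57 for Fads2, 0.17 for Ppp4r4, 0.16 for Spock2 and 0.26 for Klf15. Rescaling used the listed genes with reads in every sample, and 410 of the 466 listed genes are lower. The causes of the other changes were not tested. Depth limits the 30 members with under 10 knockout reads, whose ratios have wide intervals.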
